A study of Mus musculus with 6 samples.

Results

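The genes described are those of the cytosolic ribosomal proteins, taken from the deposited count table as protein-coding genes whose symbol begins with Rpl or Rps and a digit, together with the stalk genes Rplp0, Rplp1 and Rplp2 and the small subunit gene Rpsa. Kinase genes of the Rps6k family, Rps19bp1 and symbols with -ps were dropped, and at least 10 counts in at least 3 libraries were required. Of 54418 gene identifiers, 92 carried such a name, 85 of them were protein-coding, and 81 met the count minimum, namely 46 genes of the large subunit, 31 of the small subunit and 4 paralogs (Rpl7l1, Rpl22l1, Rpl36al and Rps27l). The 4 genes below the minimum were Rpl10l, with counts of 18, 0, 0, 0, 0 and 0 over the libraries, Rpl39l with at most 9, Rpl3l with at most 15 and Rps27rt with at most 67 counts in a library. Rpl37rt, Rpl32l, Rpl6l, Rps12l1, Rps3a2, Rps3a3 and Rps4l were left out because the annotation lists them as pseudogenes. The study asked how loss of the transcription factor Glis2, a GLI-similar zinc finger protein linked to primary cilia, alters the expression of mammary epithelial cells. RNA was sequenced from cells of 3 Glis2+/+ and 3 Glis2-/- female C57BL/6 mice at 4 weeks of age, each mouse giving 1 library. The mutant mice lacked Glis2 in the germline, so every cell of the animal carried the deletion. The cells were sorted by flow cytometry after staining for TER-119, CD31, CD45, CD24 and CD49f, and 1 ng of total RNA per library was amplified in 2 rounds of 15 PCR cycles each.

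Each ribosome is built from a small subunit, which reads the mRNA, and a large subunit, which joins amino acids, and every ribosomal protein is normally present in a single copy per particle except those of the stalk. Vertebrate ribosomal protein mRNAs begin with a cytosine followed by a run of pyrimidines, the terminal oligopyrimidine (TOP) tract, through which LARP1 and the mTORC1 kinase complex adjust their translation together. In the mammary gland, ribosome production is known to increase in pregnancy and lactation, when milk proteins are made. Ribosomal protein mRNAs are also among the most frequent parents of processed pseudogenes, which are intronless copies that retain the coding sequence, and this bears on how reads are assigned to the genes.

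Total counts lay between 24996524 and 31393917 per library. Glis2 itself was counted 671, 663 and 510 times in Glis2+/+ mice 1, 2 and 3 and 252, 509 and 510 times in Glis2-/- mice 1, 2 and 3, which is 19.6 to 23.2 CPM, the counts scaled to the library size after TMM normalization, against 10.1 to 17.0 CPM. These ranges did not overlap and the log2 fold change was -0.57 ± 0.22 (SE), with an adjusted p of 0.906 by edgeR's quasi-likelihood test. Counts on Glis2 thus remained in all Glis2-/- libraries, and which part of the gene the allele removes is not given in the sources used here. Keratin and Epcam transcripts, the defining markers of the labelled epithelium, were abundant in every library, with at least 8516 counts of Krt14, 38227 of Krt8 and 10925 of Epcam. Transcripts of other cell types were present too. Col3a1, a fibroblast collagen, had between 30837 and 113852 counts. Of genes for antigens excluded in the sort, Pecam1 (CD31) had between 1273 and 6207 counts and Ptprc (CD45) between 228 and 1212. Depth limits the precision of these values only a little for the ribosomal protein genes, of which the least counted, Rps27l, had at least 422 counts in each library.

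The sequence at the transcription start shows the feature by which this class of mRNA is recognised. The windows below run from 10 bases before to 20 bases from the annotated start on, 5′ to 3′ on the coding strand, from RefSeq (GRCm38.p6), where a tract was a C followed by at least 4 bases that are each C or T, beginning within 5 bases of the start. Capitals run from the C nearest the annotated start that meets this rule to the end of the run. The first 4 genes are shown because their annotated first base is such a C, although in Rps6, Rps27 and Rpl15 the run of C and T also reaches back before it from an earlier C. Rps28 and Rpl11 are shown because they are described below and no tract began within 5 bases of the start, although Rpl11 has such a run farther downstream, at the end of the printed window.
Rps6 (chr4:86857348-86857377, minus strand): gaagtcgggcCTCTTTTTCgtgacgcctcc
Rpl38 (chr11:114668570-114668599, plus strand): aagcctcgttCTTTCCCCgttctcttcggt
Rps27 (chr3:90213629-90213658, minus strand): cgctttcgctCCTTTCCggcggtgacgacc
Rpl15 (chr14:18270967-18270996, minus strand): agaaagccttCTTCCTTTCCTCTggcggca
Rps28 (chr17:33824543-33824572, minus strand): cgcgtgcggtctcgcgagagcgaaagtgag
Rpl11 (chr4:136053374-136053403, minus strand): ccataaggccacggggccggaagtctccct
RefSeq start windows were found for 61 of the 81 genes, and 29 of them, or 47.5%, held a tract at 1 or more annotated starts, against 21.2% of all genes with such a window. Annotated starts can lie some bases from the start used in a cell, so a gene counted as without the tract is only one in which none began within 5 bases of an annotated start. Between the genotypes, the median log2 fold change of CPM was 0.12 both in genes with the tract and in genes without it, with 23 of 29 and 27 of 32 genes above 0.

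The ribosomal protein genes together held 1.99%, 2.34% and 2.06% of all counts in Glis2+/+ mice 1, 2 and 3 and 2.19%, 2.38% and 2.08% in the Glis2-/- mice. Mouse 2 of each genotype had the highest share, and the genotypes overlapped. The means were 2.13% ± 0.19 and 2.21% ± 0.15 (SD, n = 3 each). In sorted populations, fewer cells of a type and less RNA per cell cannot be told apart. The genes moved together from library to library. After subtracting each gene's mean log2 CPM over the 6 libraries, 77 of 81 genes lay above their mean in Glis2+/+ mouse 2 and 77 in Glis2-/- mouse 2, whereas only 3 did so in Glis2+/+ mouse 1, 13 in Glis2+/+ mouse 3 and 19 in Glis2-/- mouse 3. In Glis2-/- mouse 1 there were 50. Over all 21236 genes tested, between 51.1% and 54.5% lay above their mean in each library. The median deviation of the 81 genes was -0.16, 0.10 and -0.11 on the log2 scale in the Glis2+/+ mice and 0.03, 0.20 and -0.06 in the Glis2-/- mice. For 64 genes the highest of the 6 values was that of Glis2-/- mouse 2 and for 13 that of Glis2+/+ mouse 2, while the lowest was that of Glis2+/+ mouse 1 for 43 and of Glis2+/+ mouse 3 for 27. The median SD of a gene over the 6 libraries was 0.15 on the log2 scale and 0.08 after the median deviation of each library was subtracted, and 76 genes had a smaller SD after it. In counts without pseudogenes, Rpl12 and Rps13 did not follow the class closely, with SDs of 0.41 and 0.33 after subtraction. Mouse 2 of both genotypes was also highest in 9 elongation and termination factors, with median deviations of -0.08, 0.13 and -0.05 in the Glis2+/+ mice and 0.01, 0.15 and -0.07 in the Glis2-/- mice.

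**Figure D1:**
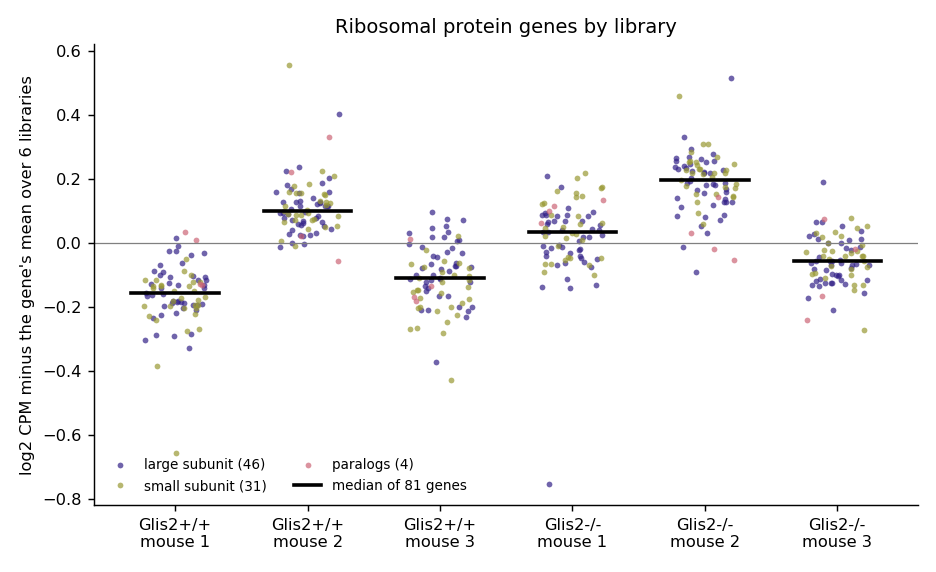
Each point is 1 of the 81 ribosomal protein genes in 1 library, as its log2 CPM minus its own mean over the 6 libraries, coloured by subunit, and the black bars are medians. The medians of mouse 2 of both genotypes (0.10 and 0.20) lie above the others, and those of Glis2+/+ mice 1 and 3 (-0.16 and -0.11) are lowest.

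The balance between subunits varied little. Small subunit genes had 0.62, 0.63 and 0.59 times the counts of large subunit genes in the Glis2+/+ mice and 0.63, 0.64 and 0.63 times in the Glis2-/- mice. The median biological coefficient of variation within genotypes was 13.7% for the ribosomal protein genes, against 22.4% for all protein-coding genes and 29.8% for all genes tested, which were not matched for level. The median was 13.6% for elongation and termination factors, 12.9% for initiation factors and 12.3% for other mRNAs with a TOP tract, so that a low spread was shared with these lists.

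Comparison of the genotypes addressed whether loss of Glis2 went with another level of these mRNAs. A gene was called where its adjusted p from edgeR's quasi-likelihood test was 0.05 or less and its log2 fold change was 0.58 or more in size. No ribosomal protein gene was called, and 0% of all 21236 genes were called, while 1130 genes had an unadjusted p under 0.05. The smallest adjusted p of a ribosomal protein gene was 0.906 in this test. The authors used DESeq2 with apeglm shrinkage instead. Applied here, that method called some genes but no ribosomal protein gene, as given below. In CPM, 67 of the 81 genes were higher in Glis2-/- cells and 14 lower, against 51.6% of all genes higher. The median log2 fold change was 0.12 against 0.01 over all genes. On the deposited TPM scale only 19 of 81 were higher, but the median of -0.057 lay close to that over all genes, -0.064. TPM values sum to the same total in every library, and 1 gene, Gm23935, annotated as a microRNA, took between 83.0% and 85.7% of that total. With TPM rescaled without Gm23935, 52 genes were higher and the median was 0.04 against -0.05 over all genes. All 81 log2 fold changes in CPM lay between -0.15, for Rpl12, and 0.32, for Rps14, so none reached the size that the threshold asks for. An unadjusted p under 0.05 was found for Rps14 (0.0397), Rpl35a (0.0434) and Rps28 (0.0479), all higher in Glis2-/- cells, against 5.32% of all genes in either direction, 2.99% higher and 2.33% lower. The libraries of the genotypes did not overlap in CPM for 7 genes, 6 higher (Rpl31, Rpl38, Rps27l, Rpl36, Rps28 and Rpl35a) and 1 lower (Rpl11), against 11.7% of all genes, 6.23% of them higher and 5.5% lower. With 3 mice against 3, an exact permutation test of a single gene cannot give a two-sided p below 0.1.

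Single mice decided how large the difference appeared. Without Glis2+/+ mouse 2, 79 genes were higher, the median log2 fold change was 0.20 and 44 genes did not overlap, against 23.2% of all genes. Without Glis2-/- mouse 2, 49 were higher and the median was 0.04, and without Glis2+/+ mouse 1 these values were 51 and 0.05. Without Glis2-/- mouse 3, 17 genes did not overlap, against 23.6% of all genes, and without Glis2-/- mouse 1, 11, against 19.1%, so that both counts were below the share over all genes.

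**Figure D2:**
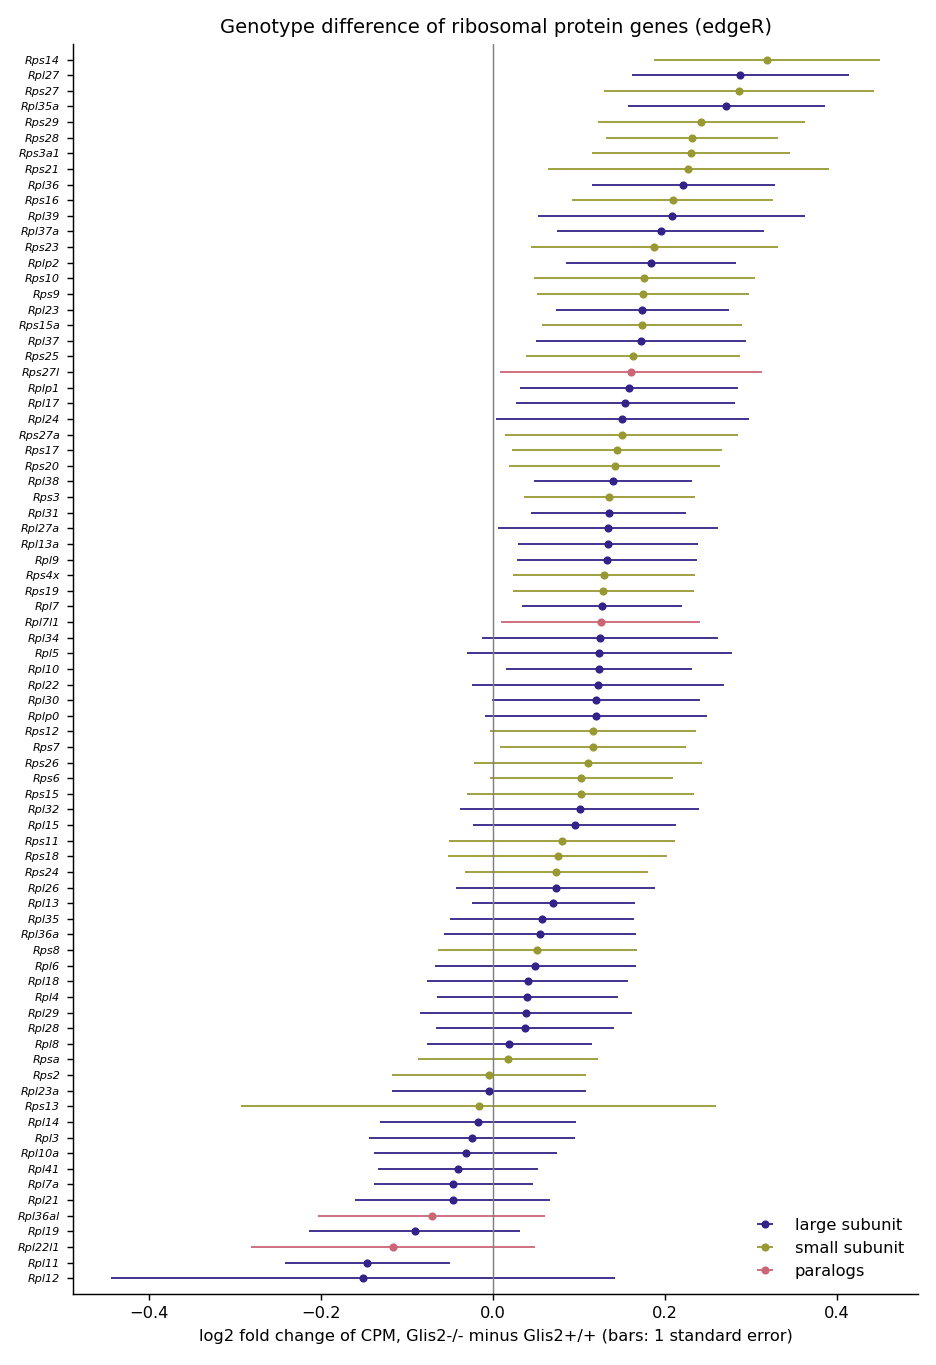
Log2 fold change of CPM between Glis2-/- and Glis2+/+ cells for 79 of the 81 genes, with 1 standard error from edgeR (n = 3 mice per genotype) and colour by subunit. The points are 65 of the 67 genes above 0 in CPM and all 14 below it, and no gene lies beyond 0.32 in either direction.

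Among the 46 genes of the large subunit, 36 were higher and 10 lower in Glis2-/- cells in CPM, with a median log2 fold change of 0.11, whereas 9 were higher in TPM. Rpl35a, one of the genes mutated in Diamond-Blackfan anaemia, measured 96.9, 117 and 96.3 CPM in the Glis2+/+ mice and 121, 135 and 118 in the Glis2-/- mice, a log2 fold change of 0.27 ± 0.11 (SE; adjusted p = 0.906, edgeR). Its lowest Glis2-/- value lay 1.63 CPM above the value of Glis2+/+ mouse 2. Rpl27 had a log2 fold change of 0.29 ± 0.13, but Glis2+/+ mouse 2, at 60.6 CPM, and Glis2-/- mouse 1, at 60.3, were level. For Rpl36 the values were 138, 160.6 and 141 CPM against 165, 186 and 160.9, so that Glis2+/+ mouse 2 and Glis2-/- mouse 3 nearly met. Rpl38, which is needed for translation of a set of Hox mRNAs in the mouse embryo, and Rpl31, a protein near the mouth of the exit tunnel, had, with Rps27l, the smallest spread within genotypes of all 81 genes. Rpl38 measured 109.7, 118 and 109 CPM against 125, 127 and 119, and Rpl31 149.8, 158 and 149 against 166, 176 and 159.6. The gap between the genotypes was 0.93 CPM for Rpl38 and 1.37 CPM for Rpl31, narrower than the range within either genotype.

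Rpl11 and Rpl5 form a particle with a small ribosomal RNA that can bind Mdm2 and so stabilise p53. Rpl11 measured 129.8, 144 and 131 CPM in the Glis2+/+ mice and 129, 121 and 117 in the Glis2-/- mice. It was the only ribosomal protein gene without overlap in the lower direction, by a margin of 0.84 CPM, with a log2 fold change of -0.15 ± 0.10 (adjusted p = 0.940, edgeR), which became 0.01 when counts of its pseudogenes were added. Rpl5 did not go with it, at 57.2, 79.0 and 65.6 CPM against 66.8, 85.5 and 67.6 and a log2 fold change of 0.12 ± 0.15. Rpl12, at the base of the stalk, was the lowest of the list at -0.15 ± 0.29, but its values of 33.3, 48.8 and 38.8 against 21.8, 52.7 and 34.4 CPM overlapped widely, and Glis2-/- mouse 1 alone lay below all others. Rpl19, part of a bridge between the subunits, had a log2 fold change of -0.09 ± 0.12, and Rpl3, which reaches towards the peptidyl transferase centre, one of -0.02 ± 0.12. Per length and in TPM, the highest of the 81 genes was Rpl26, at 511 ± 82.5 in Glis2+/+ and 474 ± 64.2 in Glis2-/- cells (SD, n = 3 each). The means differed by less than the spread between mice, and in CPM the gene had the opposite sign, with a log2 fold change of 0.07 ± 0.12.

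The stalk, which recruits the translation factors to the ribosome, is built on Rplp0 and carries several copies of Rplp1 and Rplp2. Rplp2 was the third in TPM, at 391 ± 39.8 and 394 ± 19.4, and measured 489, 562 and 469 CPM against 549, 615 and 564. The value of Glis2+/+ mouse 2 lay above that of Glis2-/- mouse 1 and just under that of Glis2-/- mouse 3. Log2 fold changes in CPM were 0.18 ± 0.10 for Rplp2, 0.16 ± 0.13 for Rplp1 and 0.12 ± 0.13 for Rplp0, and in each of the 3 genes mouse 2 held the highest value of its genotype.

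Among the 31 genes of the small subunit, 29 were higher and 2 lower in CPM, with a median log2 fold change of 0.14, whereas 10 were higher in TPM. The 2 lower genes were Rps13 and Rps2, the latter named after its value was seen, and both lay within 0.02 of 0. Rps14, whose loss contributes to the anaemia of a human myelodysplastic syndrome, measured 147, 187 and 146 CPM in the Glis2+/+ mice and 201, 221 and 178 in the Glis2-/- mice. Its log2 fold change of 0.32 ± 0.13 (adjusted p = 0.906, edgeR) was the largest of the 81, although Glis2-/- mouse 3 lay below Glis2+/+ mouse 2. Rps28 measured 124, 141 and 125 CPM against 157, 158 and 143, a log2 fold change of 0.23 ± 0.10, with a gap of 1.38 CPM between the genotypes. Rps27 and Rps29, both small zinc-binding proteins, had log2 fold changes of 0.29 ± 0.16 and 0.24 ± 0.12. For Rps27 a single library, Glis2-/- mouse 2 with 114 CPM, stood above the other 5 libraries, which lay between 68.8 and 85.4.

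Rps6, the substrate of the kinases that mTORC1 activates, measured 239.8, 295 and 263 CPM against 305, 287 and 266, a log2 fold change of 0.10 ± 0.11. Pseudogenes matched as described below held 58.5% of the counts of Rps6 and its pseudogenes together. With them added, its log2 fold change was 0.007 ± 0.11. Rpsa, which is also known as a laminin receptor, was the most counted of all 81 genes in CPM and nearly level between the genotypes, at 1118, 1289.9 and 1051.5 against 1087, 1278 and 1138 (log2 fold change 0.02 ± 0.10). Rps4x, the X-linked small subunit gene, had 0.13 ± 0.11. Rps13 and Rps21 had, with Rpl12, the largest spread within genotypes. Rps13 ranged from 37.8 CPM in Glis2+/+ mouse 1 to 87.6 in Glis2+/+ mouse 2, so both ends of its range were in the same genotype. Its spread was smaller with pseudogene counts added, as given below. Rps21 ranged from 94.3 in Glis2+/+ mouse 3 to 151 in Glis2-/- mouse 2.

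The 4 paralogs are related to a ribosomal protein gene at another locus. Together they had 143 to 172 CPM per library, against 19392 to 24533 for the 77 other genes. Rps27l, a target of p53, is shown beside Rps27 because the 2 coding sequences have the same length of 252 bases without the stop codon, and 76.2% of the bases are identical. The sequences are from GENCODE M21 transcripts of GRCm38, 5′ to 3′, with the 60 bases that differ in capitals.
Rps27 (gene at chr3:90212522-90213651, minus strand): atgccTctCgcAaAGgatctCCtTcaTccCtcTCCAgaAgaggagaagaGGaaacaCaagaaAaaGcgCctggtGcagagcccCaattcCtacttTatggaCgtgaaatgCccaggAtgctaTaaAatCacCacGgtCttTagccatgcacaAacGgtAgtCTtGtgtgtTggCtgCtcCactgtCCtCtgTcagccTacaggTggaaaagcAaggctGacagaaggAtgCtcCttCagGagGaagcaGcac
Rps27l (gene at chr9:66946086-66949516, plus strand): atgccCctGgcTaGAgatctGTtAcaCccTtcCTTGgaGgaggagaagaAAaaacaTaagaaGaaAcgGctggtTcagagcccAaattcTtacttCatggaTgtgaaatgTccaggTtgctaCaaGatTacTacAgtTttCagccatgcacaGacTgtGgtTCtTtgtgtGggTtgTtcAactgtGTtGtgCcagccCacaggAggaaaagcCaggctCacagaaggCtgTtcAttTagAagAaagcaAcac
The 2 genes differed in level. Rps27 had a mean of 107 TPM and Rps27l of 12.1, and Rps27l measured 16.3, 18.1 and 16.2 CPM against 19.5, 18.2 and 18.8. Its genotypes were separated by 0.13 CPM, with a log2 fold change of 0.16 ± 0.15. Rpl7l1, a relative of Rpl7 with 52.7% of aligned bases identical, had the lowest TPM of the 81 genes, at 7.44, and log2 fold changes of CPM were 0.13 for each, with SEs of 0.12 and 0.09. Rpl22l1, 66.9% identical to Rpl22, measured 35.7, 44.6 and 31.3 CPM against 38.0, 35.0 and 30.0 and Rpl22 301, 407 and 301 against 366, 413 and 321. Their log2 fold changes of -0.12 ± 0.17 and 0.12 ± 0.15 had opposite signs, and the difference between them was not tested. Rpl36al, 87.7% identical to Rpl36a, had -0.07 ± 0.13 and Rpl36a 0.06 ± 0.11. Of the remaining genes with a paralog below the minimum or among the pseudogenes, Rpl10 had a log2 fold change of 0.12 ± 0.11 and Rpl39, whose protein lines the exit tunnel, 0.21 ± 0.16.

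The estimated counts divide reads between each gene and its processed pseudogenes, and for some genes the larger part went to the pseudogenes. Pseudogenes were genes annotated as such or named after a ribosomal protein gene with -ps. Of the latter, Rps12-ps3 is annotated as protein-coding and had 4132 of the 4730 mean pseudogene counts of Rps12. A search with each coding sequence found 1016 pseudogene transcripts with at least 90% identity over at least 50% of it, for 79 of the 81 genes, and 601 of these pseudogenes had a mean of at least 10 counts. They held between 24.6% and 25.4% of the counts of genes and pseudogenes together, in a narrow range over the 6 libraries. In 44 genes the pseudogenes had over 10% of the joint counts, and in 11 genes they had more counts than the gene. Rpl5 had a mean of 2014 counts and Gm15500, an intronless copy, 26890. Over the 891 coding bases of Rpl5 the copy has 0 mismatches. Rpl3 had 12250 counts and Rpl3-ps1 13118, with 2 mismatches over 1209 bases. The first 90 coding bases of Rpl5 and a stretch of Rpl3 around its first mismatch are printed beside the copies from GENCODE M21 (GRCm38), because a read of 40 bases that covers no difference fits the gene and the copy equally well, and differences are in capitals.
Rpl5 (gene at chr5:107900502-107909005, plus strand): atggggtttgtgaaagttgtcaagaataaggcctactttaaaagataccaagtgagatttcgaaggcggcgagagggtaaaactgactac
Gm15500 (gene at chr7:114705217-114706235, minus strand): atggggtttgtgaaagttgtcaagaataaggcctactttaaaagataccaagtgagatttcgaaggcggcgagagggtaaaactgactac
Rpl3 (gene at chr15:80077791-80091868, minus strand): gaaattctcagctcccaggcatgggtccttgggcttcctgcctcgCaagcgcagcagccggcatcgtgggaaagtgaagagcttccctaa
Rpl3-ps1 (gene at chrX:13202571-13203780, plus strand): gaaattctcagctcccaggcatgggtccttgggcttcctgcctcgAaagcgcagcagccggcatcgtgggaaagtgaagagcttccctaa
For Rpl12 the gene had 1105 counts and Gm10275, identical over all 495 coding bases, 8626. Over all transcript stretches of 40 bases, a median of 58.2% per gene also occurred in transcripts of other genes, and as much as 98.7% in Rps27. Rpl8 had no matched pseudogene. Levels of single genes, above all of the 11, are thus uncertain, and the order by level depends on how pseudogene reads are counted: Rpl5 was 77th of 81 in TPM as deposited and 10th with its pseudogenes added. Rpl26 stayed first in both orders.

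**Figure D3:**
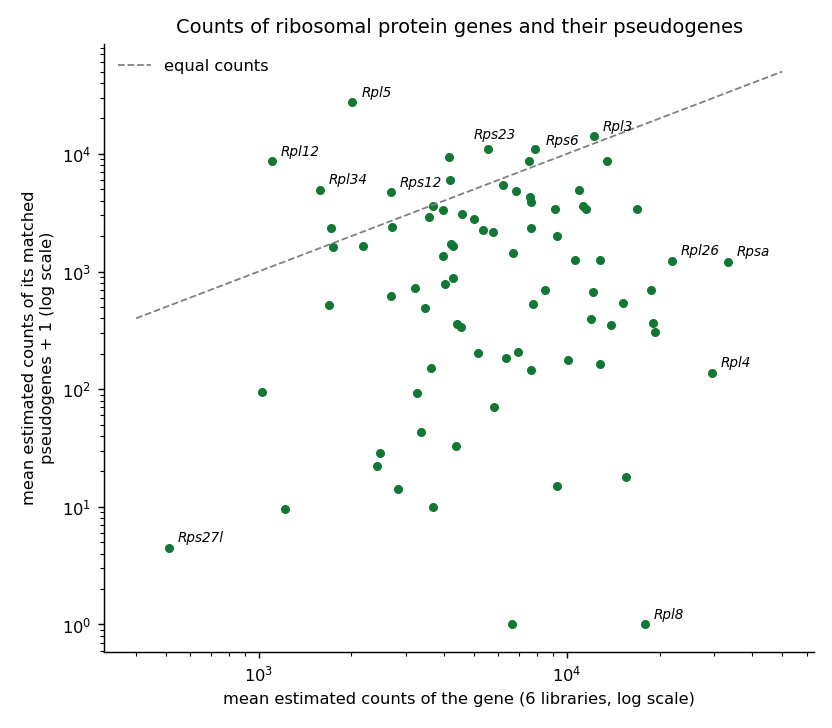
Mean estimated counts of each of the 81 genes over 6 libraries (x axis, log scale) against the summed mean counts of its matched pseudogenes plus 1 (y axis, log scale). The 11 genes above the dashed line have more counts in their pseudogenes, with Rpl5 (2014 counts) and Rpl12 (1105) farthest from it, and Rpl8 has none.

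With the counts of matched pseudogenes added to each gene, an alternative chosen after the data were seen, 73 of 81 genes were higher in CPM, the median log2 fold change was 0.10, and 3 genes did not overlap between the genotypes, Rpl27, Rpl35a and Rpl36, all higher, against 11.7% of all genes in that fit. Rpl12 then measured 297, 391 and 314 CPM against 340.0, 407 and 308, with a log2 fold change of 0.07 ± 0.14 in place of -0.15 ± 0.29, and Rpl11 239, 269 and 255 against 258, 274 and 240.1. The spread of Rpl12 within genotypes was 0.21 on the log2 scale after the addition and 0.49 before it. That of Rps13 was 0.19 after the addition and 0.47 before it. Rps14, with 3.80% of its joint counts in pseudogenes, had a log2 fold change of 0.32 both ways.

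Genes with short coding sequences had larger log2 fold changes than long ones. Of the 28 genes with up to 400 coding bases, 25 were higher in CPM, with a median log2 fold change of 0.15, compared with 24 of 30 and 0.11 at over 400 to 600 bases and 16 of 20 and 0.10 at over 600 to 900 bases. Only 3 genes were longer, with a median of 0.04. Across the 81 genes, which share libraries and are not independent replicates, Spearman's rho between log2 fold change and coding length was -0.41, and Pearson's r with the log2 length was -0.28. Other protein-coding genes, 15124 in number, gave a rho of -0.04, and their median in the shortest class was 0.02. Rpl41, the shortest gene with 75 coding bases, went against the trend with a log2 fold change below 0. The median deviation of the 28 short genes minus that of the 23 genes over 600 bases was -0.01, -0.03 and -0.07 on the log2 scale in the Glis2+/+ mice and 0.09, 0.05 and 0.03 in the Glis2-/- mice, so the genotypes did not overlap in this contrast, which was chosen after the values were seen and was not tested.

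**Figure D4:**
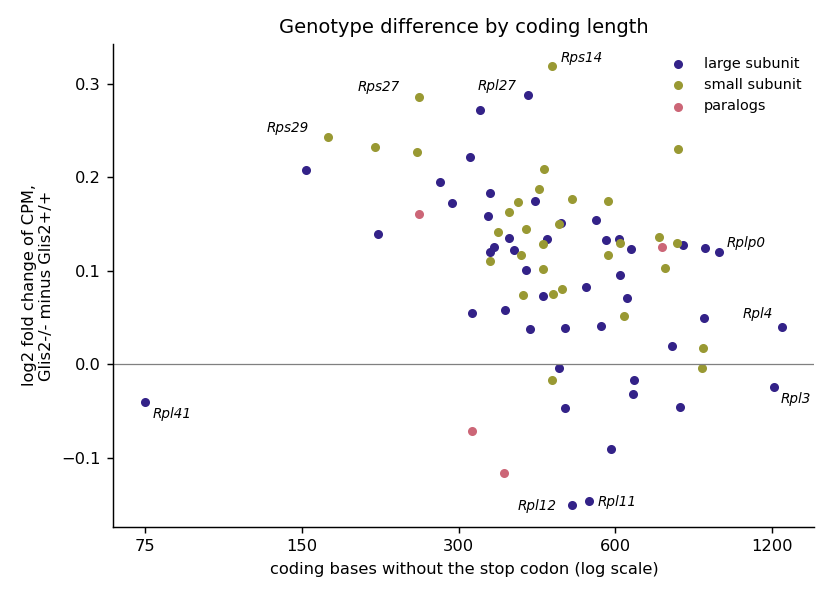
Log2 fold change of CPM of each ribosomal protein gene against its coding length on a log scale, coloured by subunit. The median falls from 0.15 at up to 400 bases to 0.10 at over 600 to 900 bases, with Rpl41 (75 bases) below 0.

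Luminal markers were high and fibroblast and endothelial markers low in the libraries with a high level of the ribosomal protein genes, and basal and lymphocyte markers did not follow it. The summed CPM of the 81 genes was 19541, 23441 and 20276 in the Glis2+/+ mice and 21837, 24690 and 20842 in the Glis2-/- mice. The 3 libraries with the highest sums, mouse 2 of both genotypes and Glis2-/- mouse 1, also had the 3 highest sums of 7 luminal markers, at 5575 to 6661 CPM against 3760 to 5304 in the others, and the 3 lowest sums of 6 fibroblast markers, at 2293 to 4256 against 5885 to 7727, and of 5 endothelial markers, at 122 to 405 against 457 to 645. The sum of 5 basal markers was 2041 to 2729.9 CPM in Glis2+/+ and 2977 to 3617 in Glis2-/- libraries, without overlap, but without Acta2, the most counted of them, the sums overlapped, at 957 to 1567 against 1474 to 1781 CPM. The sum of all 5 was highest in Glis2-/- mouse 3, at 3617 CPM, a library with 1 of the 3 lowest ribosomal protein sums. All 5 had a log2 fold change above 0, but 0 of them were without overlap and 0 were called (smallest adjusted p = 0.906, edgeR), and Acta2 (0.41 ± 0.13) and Trp63 (0.56 ± 0.22) had unadjusted p-values under 0.05. Sums of 6 lymphocyte markers did not overlap either, at 14.2 to 23.5 against 26.8 to 57.9 CPM, the last in Glis2-/- mouse 3, with Cd3e at 3 to 93 counts. Their median log2 fold change was 1.21, with 5 higher and 1 lower. Of the 6, 3 had an unadjusted p under 0.05 (edgeR), against 5.32% of all genes, and 3 were without overlap, against 11.7%. All of these were higher in Glis2-/- cells, and 0 were called. Summed markers of the remaining cell types overlapped between the genotypes and were low, at 9.66 to 24.7 CPM for 4 macrophage markers, 6.34 to 37.0 for 4 skeletal muscle markers, 6.34 to 31.6 for 4 erythroid markers and 52.3 to 308 for 4 adipocyte markers, of which Adipoq was at 0 in Glis2-/- mouse 2 and Lep at 0 in Glis2+/+ mouse 2. Most of the adipocyte sum was Fabp4, while Adipoq did not overlap, at 1.30 to 4.07 CPM in Glis2+/+ and 0 to 1.04 in Glis2-/- cells, and Plin1 had a log2 fold change of -1.37 ± 0.46 with an unadjusted p of 0.0166 (adjusted p = 0.906, edgeR). Also under 0.05 unadjusted, and lower in Glis2-/- cells, were 1 macrophage and 1 skeletal muscle marker. Malat1 and Neat1, which stay in the nucleus, summed to between 17030 and 20777 CPM and overlapped too. The part of these markers in the level of the ribosomal protein genes was not tested. With the mean log2 CPM of the fibroblast and endothelial markers as a covariate, an alternative added after the data were seen, 0 of the 81 genes were called, 68 were higher and the median log2 fold change was 0.11. In that fit 10 of the 81 had an unadjusted p under 0.05, against 8.85% of all genes, and the smallest adjusted p, for Rps14, was 0.275 at a log2 fold change of 0.31 ± 0.08.

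**Figure D5:**
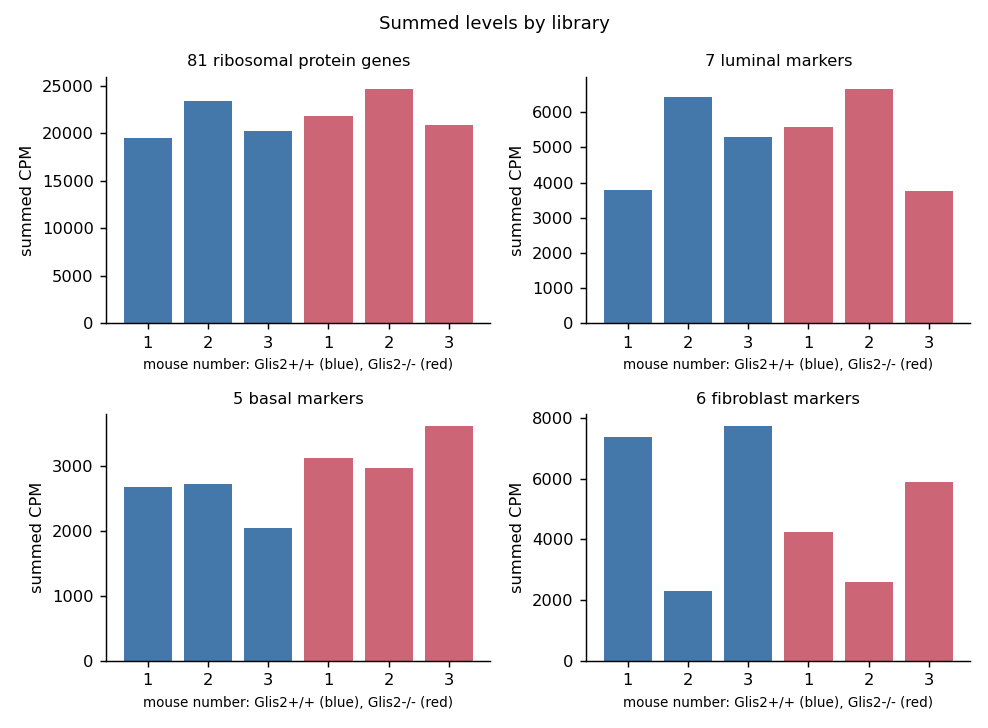
Summed CPM of the 81 ribosomal protein genes and of luminal, basal and fibroblast markers in each library, with Glis2+/+ mice in blue and Glis2-/- mice in red. Mouse 2 of both genotypes has the highest ribosomal protein sums (23441 and 24690 CPM) and the lowest fibroblast sums (2293 and 2585 CPM).

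Other genes of the translation machinery are given in CPM, and in TPM fewer genes of each list were higher, as in the ribosomal protein genes. Fau, which encodes a ribosomal protein fused to a ubiquitin-like domain, had a log2 fold change of 0.16 ± 0.12, and the ribosome-bound scaffold Rack1 one of 0.10 ± 0.11. Of 36 initiation factors, 11 were higher (2 in TPM) and 25 lower, with a median of -0.04, and Eif1b alone had an unadjusted p under 0.05, at -0.54 ± 0.22. Elongation and termination factors were split into 5 higher (0 in TPM) and 4 lower, with Eef1a1 at 0.10 ± 0.11 and Eef2, which moves the ribosome along the mRNA, at 0.12 ± 0.13. Among them Eef2k, the kinase that inhibits Eef2, measured 0.29 ± 0.12, with an unadjusted p under 0.05. Among 8 other mRNAs with a TOP tract, 4 were higher (1 in TPM) and 4 lower, with Tpt1, under 0.05 in its unadjusted p, at 0.27 ± 0.11 and Npm1 at -0.06 ± 0.08. Of 53 genes for RNA polymerase I and ribosome biogenesis, 14 were higher (6 in TPM) and 39 lower, with a median of -0.10. Those with an unadjusted p under 0.05 were Nop56 at -0.35 ± 0.15 and Ltv1, an assembly factor of the small subunit, at -0.41 ± 0.14. In 18 genes of mTORC1, LARP1 and MYC regulation the median was 0.05, with 10 higher (4 in TPM), and Larp1 itself had -0.07 ± 0.12. No gene of these lists was called, and the smallest adjusted p among them was 0.906 (edgeR).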

How the data were processed

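The authors estimated transcript abundance with Salmon 1.2.1 against an mm10 transcriptome and summed it per gene with tximport. The deposited values are whole-number estimated counts, without normalization, and log2 values of TPM after adding an offset of 1. Symbols, positions, gene types and coding sequences came from GENCODE M21 (GRCm38). Counts were fitted over the whole table with edgeR 4.0.16 in R 4.3.3 (filterByExpr, TMM, quasi-likelihood test, Benjamini-Hochberg adjustment over 21236 genes), with the thresholds of the study (adjusted p 0.05, log2 fold change 0.58 in size). The authors applied these thresholds to protein-coding genes in DESeq2 results with apeglm shrinkage. CPM are TMM-normalized, and fold changes are Glis2-/- minus Glis2+/+. The common biological coefficient of variation was 37.4%. Pseudogenes were matched with blastn 2.17.0, and the fit was tested on simulated data.

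The members, lists and tests were chosen with earlier results of these data known. Named genes were the 5 largest changes per direction, those with an unadjusted p under 0.05, up to 4 per direction without overlap, the 3 highest and lowest in TPM, genes with a paralog, Rplp0, Rplp1, Rplp2, Rpsa, Rps6, Rpl5 and Rpl11, the 3 with the largest and smallest spread, and, of other lists, those with an unadjusted p under 0.05 and the 2 highest. A few of these genes are not reported here. Other genes were named after their values were seen. Alternatives were DESeq2 1.42.0 without and with apeglm 1.24.0, DESeq2 size factors, other filters, protein-coding genes only, limma 3.58.1 on log2 TPM with offsets of 1 and 0.1, a replicate block, pseudogene counts added and each mouse left out. Pseudogenes matched by sequence, TPM rescaled without Gm23935 and a stromal covariate were added after seeing the data. Nothing says how the mice were spread over days or litters, and p-values measure the spread between these mice.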

Additional observations from a re-analysis of the deposited data

How the results depend on the processing

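No ribosomal protein gene was called under any alternative, and the smallest adjusted p of one was 0.275 with the stromal covariate and at least 0.740 otherwise. Over all genes, 48 were called by DESeq2, 45 with apeglm, 40 without a filter on low counts, 1 with log2(TPM + 0.1), 1 with TPM rescaled without Gm23935 and 9 with the stromal covariate, and 0 otherwise. DESeq2 gave 0 ribosomal protein genes an unadjusted p under 0.05. The median log2 fold change of the 81 genes was -0.057 with both TPM offsets and 0.042 to 0.20 when a mouse was left out. The median over all genes was -0.14 with an offset of 0.1, so relative to all genes the class stood 0.08 higher there and 0.01 higher with an offset of 1. Genes without overlap numbered 2 at 10 counts in every library (12% of all genes there), 0 with both TPM offsets (13.1%), 4 with rescaled TPM and 3 with matched pseudogenes (11.7% each), and 7 to 44 when a mouse was left out (19.1% to 23.6%). The log2 ratio of the share of counts, 0.055, was -0.075 as a share of TPM, 0.030 as a share of TPM without Gm23935 and 0.0015 to 0.13 when a mouse was left out. The same-numbered mice did not deviate together in every pair (r over all genes -0.03, 0.28 and 0.06). These correlations cannot show whether mice of the same number shared a day or a litter, so pairing by number remains unknown. With the replicate block, 6 ribosomal protein genes had an unadjusted p under 0.05 in place of 3, against 6.06% of all genes, the median was 0.12, and 0 genes were called.

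Of the 32 named genes, 9 kept 1 direction in every alternative. In log2 TPM (2 values where the offsets differ) the log2 fold change turned to -0.048 for Rpl10, -0.054 for Rpl22, -0.11 for Rpl26, -0.039 for Rpl31, -0.14 for Rpl36a, -0.048 for Rpl38, -0.028 for Rpl7, -0.013 and -0.0092 for Rpl7l1, -0.057 for Rplp0, -0.021 for Rplp1, -0.011 and -0.010 for Rps27l, -0.049 for Rps4x, -0.067 and -0.066 for Rps6 and -0.16 for Rpsa. With TPM rescaled it turned to -0.0070 for Rpl26, -0.044 for Rpl36a and -0.063 for Rpsa. It turned to -3.4e-05 for Rpl35a with apeglm, to 0.044 for Rps13 with the block and 0.014 with the covariate, to 0.063 for Rpl3 and 0.070 for Rps13 with pseudogenes of the same symbol, and with matched pseudogenes to 0.015 for Rpl11, 0.075 for Rpl12, 0.066 for Rps13, 0.062 for Rpl3 and 0.021 for Rpl36al. Leaving out a mouse gave -0.52 to 0.11 for Rpl12, -0.21 to 0.013 for Rpl19, -0.23 to 0.036 for Rpl22l1, -0.020 to 0.16 for Rpl26, -0.14 to 0.081 for Rpl3, -0.034 to 0.10 for Rpl36a, -0.17 to 0.030 for Rpl36al, -0.0082 to 0.26 for Rpl5, -0.29 to 0.32 for Rps13 and -0.058 to 0.11 for Rpsa. The cause was not tested. Depth limits little here, since the least counted gene had at least 422 counts per library. The values are limited by 3 mice per genotype, by reads that fit pseudogenes as well, and by libraries that differ in stromal transcripts.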

Other observations

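The proteins of the mitochondrial ribosome are encoded by another gene family with the same task. Of its 78 genes, 33 were higher and 45 lower in Glis2-/- cells in CPM (15 higher in TPM), with a median log2 fold change of -0.04. Mrpl46 measured 13.9 ± 2.44 CPM in Glis2+/+ and 9.14 ± 0.85 in Glis2-/- cells (SD, n = 3 each), a log2 fold change of -0.61 ± 0.21 (SE), and Mrps25 26.3 ± 3.51 and 18.8 ± 1.56, a log2 fold change of -0.49 ± 0.16. Both were without overlap between the genotypes, both had an unadjusted p under 0.05, and neither was called (adjusted p = 0.906, edgeR). Over the whole family, 9 of 78 genes were without overlap, 2 higher and 7 lower, against 11.7% of all genes, and these 2 alone had an unadjusted p under 0.05, against 5.32% of all genes. The family held between 0.134% and 0.149% of counts per library. Its median deviations on the log2 scale were -0.01, 0.08 and -0.01 in the Glis2+/+ mice and 0.04, -0.02 and -0.04 in the Glis2-/- mice, which have the sign of those of the cytosolic ribosomal protein genes in 5 libraries and the opposite sign in Glis2-/- mouse 2. The difference between the families was not tested.

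Host transcripts of small nucleolar RNAs, several of which carry a TOP tract, had 209, 196 and 223 CPM in sum in Glis2+/+ mice 1, 2 and 3 and 233, 269 and 227 in the Glis2-/- mice, without overlap. Between 47.9% and 53.3% of each sum was Gas5, and without it the sums of 109, 102 and 113 CPM against 109, 129.5 and 113 overlapped. Of 8 genes tested, 5 were higher in CPM and 3 in TPM, with a median log2 fold change of 0.19. Gas5, the most counted of them, had 101 ± 8.04 CPM in Glis2+/+ and 126 ± 12.5 in Glis2-/- cells, a log2 fold change of 0.32 ± 0.11 with an unadjusted p of 0.0225 and an adjusted p of 0.906 (edgeR).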
